A study of Mus musculus with 4 samples.

Results

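The genes described here encode the nuclear subunits of the mitochondrial respiratory chain and ATP synthase. They were taken as every protein-coding entry of the gene count table whose symbol starts with Nduf and a subunit letter, is one of Sdha to Sdhd, or starts with Uqcr, Cox4 to Cox8 or Atp5, which gave 85 of 54532 entries. Of these, 37 are named for complex I, 4 for complex II, 8 for complex III, 18 for complex IV and 18 for complex V. The symbol Atp5o stands on 2 entries.

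The respiratory chain passes electrons from NADH (complex I, NADH dehydrogenase) and succinate (complex II, succinate dehydrogenase) through the cytochrome bc1 complex (complex III) to oxygen at cytochrome c oxidase (complex IV). Complexes I, III and IV pump protons across the inner mitochondrial membrane, and ATP synthase (complex V) uses the gradient. All complexes except complex II join subunits from nuclear genes with subunits encoded by mitochondrial DNA, so their assembly draws on both genomes. Some complex IV subunits have a general isoform and an isoform restricted to muscle, lung or testis.

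RNA was sequenced in bulk from thymic epithelial cells of C57BL/6 mice, the stromal cells on which T cells mature. The 4 groups were mTEC (medullary, Ly51− UEA1+) from SCD1 knockout mice, mTEC from littermate controls labelled WT, cTEC (cortical, Ly51+ UEA1−) from SCD1 knockout mice and cTEC from littermate controls. SCD1, stearoyl-CoA desaturase, makes oleic acid. Each group is 1 library, and the age of the mice, the number pooled and the way the knockout allele was made were not given in the sources used here. No difference therefore has a replicate check or a test, every comparison is of these libraries, and the 95% intervals cover counting error only. In bulk samples, fewer cells of a type and less RNA per cell cannot be told apart.

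The reads assigned to genes numbered between 15740383 and 18151725 per library. Scd1 itself, the targeted gene, had 278 reads in knockout mTEC and 1310 in control mTEC, and 73 reads in knockout cTEC and 325 in control cTEC, so that reads remained in both knockout libraries. The population labels fitted their defining markers: all 11 mTEC markers were higher in mTEC in both genotypes (Aire had 22186 reads in knockout mTEC and 590 in knockout cTEC), and all 12 cTEC markers were lower (Prss16 had 8940 reads in knockout mTEC and 124382 in knockout cTEC). Thymocyte markers, which neither epithelial population should express, summed to 284 CPM in knockout mTEC and 234 CPM in control mTEC, and to 424 CPM in knockout cTEC and 328 CPM in control cTEC. CPM are read counts brought to 1 common library size after scaling between libraries.

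The 85 entries took 0.890% of the reads in knockout mTEC and 0.857% in control mTEC, and 0.942% in knockout cTEC and 0.907% in control cTEC. A set of 76 had at least 100 reads in every library, and 3 had no read in any (Cox7b2, Cox8c and the second Atp5o entry). Taking 3 counts as the limit for a count of 0, a gene at 0 could have up to 0.171 CPM in either knockout library, 0.176 CPM in control mTEC and 0.196 CPM in control cTEC. Comparisons were made for entries with at least 50 reads over the pair of libraries, which kept 80 for knockout over control in mTEC, 78 in cTEC and 79 for mTEC over cTEC in each genotype.

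Levels were set against each other per length, in TPM from the deposited gene lengths. Cytochrome c oxidase subunit 8 (Cox8a) stood highest, at 1303 TPM in knockout mTEC, 1309 TPM in control mTEC, 1673 TPM in knockout cTEC and 1717 TPM in control cTEC. Another small complex IV subunit, Cox6a1, followed at 844, 808, 762 and 781 TPM in the same order of libraries. Within complex V, the catalytic F1 subunits led: Atp5a1 (alpha) averaged 729 TPM over the 4 libraries and Atp5b (beta) 673 TPM. The order between genes depends on the length used, since Atp5b averaged 1215 TPM and Cox4i1, the general isoform of subunit 4, 911 TPM with the length of the longest annotated transcript, against 551 TPM for Cox4i1 with the deposited length.

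The leading genes of the other complexes were small accessory subunits, apart from complex II. Ndufa11, accessory to complex I, had 216 TPM (knockout) and 201 TPM (control) in mTEC against 525 TPM (knockout) and 510 TPM (control) in cTEC, and Ndufa2 had 287 to 364 TPM over the 4 libraries. Uqcr10 and Uqcr11 of complex III had 296 to 434 TPM and 290 to 385 TPM. In complex II the membrane anchor Sdhd had 196 to 218 TPM and the flavoprotein Sdha 104 to 151 TPM. Ndufa11 was the one of these whose mTEC and cTEC levels stood far apart. The median subunit of complex I averaged 114 TPM, of complex II 112 TPM, of complex III 213 TPM, of complex IV 180 TPM and of complex V 185 TPM, so that the complexes overlapped widely. The lowest of the ubiquitous subunits was Ndufb2 of complex I, at 4.87 TPM on a deposited gene length of 5628 bases.

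**Figure D1:**
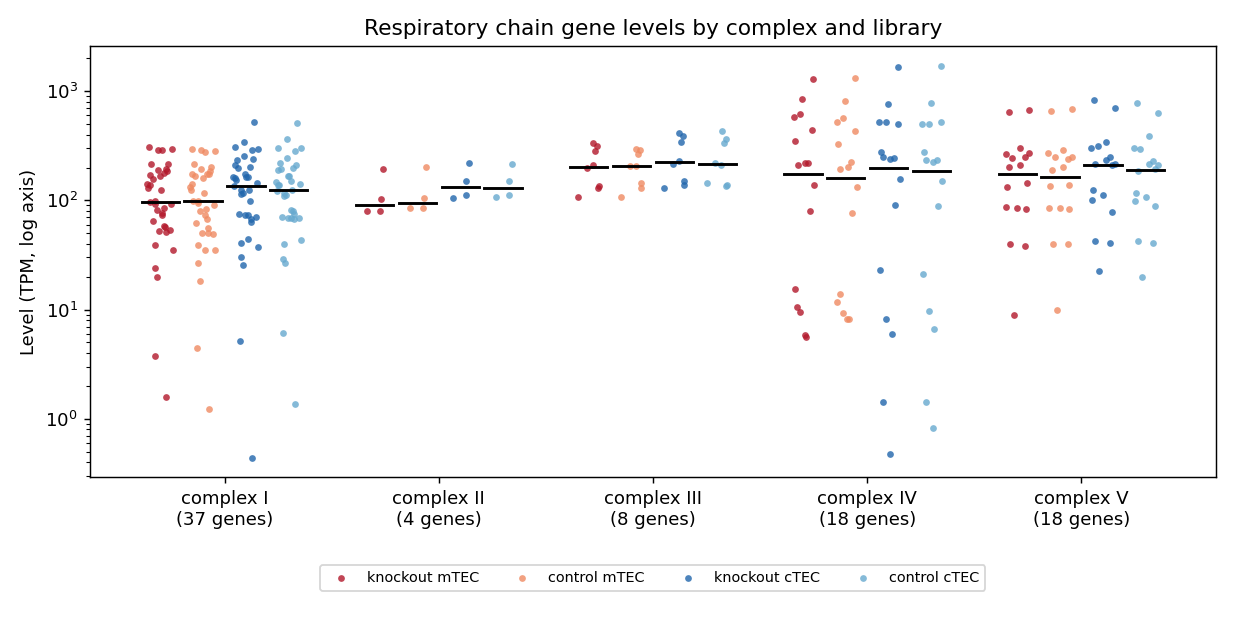
Level of each gene in TPM (log axis) by complex, 1 point per gene and library, with bars at the median of each library; the 3 genes at 0 lie off the axis. Cox8a is the highest point of complex IV, between 1303 and 1717 TPM, and the low points of complex IV are isoforms restricted to other tissues.

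Knockout and control libraries differed little in these genes, in either population. In mTEC, 1 of 80 genes was past 1.2-fold and higher in knockout cells, Ndufa12, and 0 were lower, where the rule asks for a log2 ratio beyond 1.2-fold and an interval that excludes equal levels. Over all 16466 genes, 5.9% were past it higher and 4.29% lower, so the members' share was below the background on both sides. Ndufa12 was also the 1 member past 2-fold, where 0.935% of all genes were. In cTEC, 1 of 78 was higher in knockout cells, Ndufs3, and 1 lower, Ndufa12, against 7.12% and 7.19% of 14445 genes, and 0 were past 2-fold, against 1.18%. Deeply counted genes pass less often: among genes with at least 1000 reads over the pair, 1 of 73 members and 3.44% of all genes were past 1.2-fold in mTEC, and 2 of 74 members and 6.78% of all genes in cTEC.

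The median log2 ratio of knockout over control was 0.06 in mTEC, beside 0.01 over all genes, and 0.06 in cTEC, beside 0.01. Most members lay slightly above 0, 66 of 80 in mTEC and 61 of 78 in cTEC, where 52% and 52.4% of all genes did. The lean in mTEC was shared by cytosolic ribosomal proteins (64 of 82 above 0, median 0.05) and mitochondrial ribosomal proteins (53 of 77, 0.06). In cTEC these sets had 48 of 82 (0.01) and 43 of 77 (0.04) above 0. With at least 1000 reads, 63 of 73 members lay above 0 in mTEC (49.7% of all genes) and 59 of 74 in cTEC (56%). By complex, the medians in mTEC were 0.06 for complex I, -0.04 for complex II, 0.05 for complex III, 0.10 for complex IV and 0.03 for complex V. Those in cTEC were 0.07, 0.03, 0.04, 0.07 and 0.09 in the same order. Some marker lists, though not all, moved with genotype by more than this. Thymocyte markers had a median of 0.29 in mTEC (11 of 12 above 0) and 0.38 in cTEC (12 of 12), and the cTEC marker list 0.17 and 0.32. Myeloid and dendritic markers had 0.135 in mTEC (5 of 8 above 0) and 0.32 in cTEC (6 of 6). The few endothelial markers tested had medians of 0.63 in mTEC (4 of 5 above 0) and 0.57 in cTEC (3 of 4), while mTEC markers had 0.08 in mTEC and -0.19 in cTEC (3 of 11 above 0) and fibroblast and pericyte markers 0.12 and -0.04. The part of these cells in the members' ratios was not tested.

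**Figure D2:**
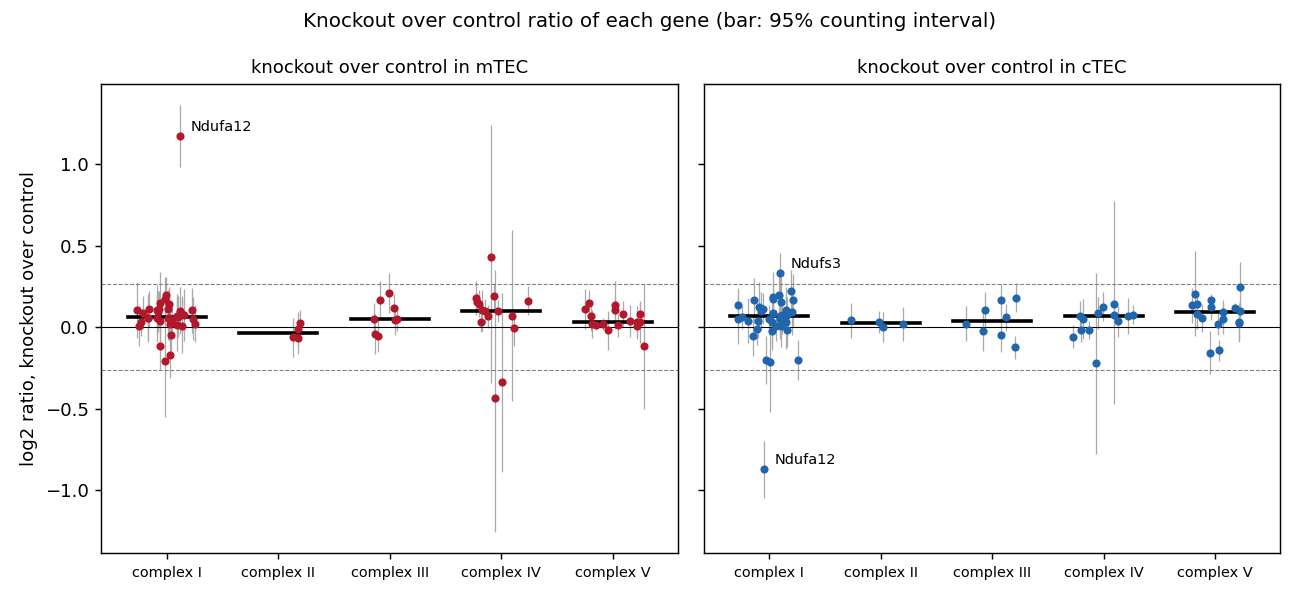
Log2 ratio of knockout over control for each gene by complex, in mTEC (left) and cTEC (right), with 95% counting intervals, medians as black bars and dashed lines at 1.2-fold. Nearly all points lie inside the dashed lines, and Ndufa12 lies outside on opposite sides, at 1.17 in mTEC and -0.87 in cTEC.

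Ndufa12, an accessory subunit of the matrix arm of complex I, gave the widest ratios and opposite signs in the 2 populations. It had 758 reads in knockout mTEC and 326 in control mTEC, and 433 reads in knockout cTEC and 691 in control cTEC. Scaled, these were 43.1 CPM (95% interval 40.1 to 46.3) in knockout mTEC and 19.1 CPM (17.1 to 21.3) in control mTEC, and 24.7 CPM (22.4 to 27.1) in knockout cTEC and 45.2 CPM (41.9 to 48.7) in control cTEC. The libraries were high in knockout mTEC and control cTEC and low in the other two, and the intervals of the high and low ones did not overlap. The log2 ratio of knockout over control was 1.17 (interval 0.98 to 1.37) in mTEC and -0.87 (-1.05 to -0.70) in cTEC.

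A processed pseudogene of Ndufa12 carried the opposite pattern. Gm15920, a copy of 402 bases on chromosome 5 (130188395 to 130188796, mm10), had 233 reads in knockout mTEC and 371 in control mTEC, and 477 reads in knockout cTEC and 185 in control cTEC. It was low where Ndufa12 was high and high where Ndufa12 was low. The sum of both was 991 reads in knockout mTEC and 697 in control mTEC, and 910 reads in knockout cTEC and 876 in control cTEC. On the summed reads the log2 ratio of knockout over control was 0.46 (interval 0.32 to 0.61) in mTEC, still past 1.2-fold, and -0.14 (-0.28 to -0.01) in cTEC, no longer past it.

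The copy has the same base as the GENCODE coding transcripts of Ndufa12 at 400 of its 402 positions, and the stretches around both differing bases are shown because they are the only sites that tell the 2 genes apart there. Positions count from 1 at the first base of the copy, and each pair gives Ndufa12 (chr10:94199968-94200028, then chr10:94220807-94220861) and Gm15920 (chr5:130188463-130188523, then chr5:130188742-130188796), plus strand, GRCm38. The differing base is in capitals, A99G in the first pair and T378C in the second.
Ndufa12, site 99: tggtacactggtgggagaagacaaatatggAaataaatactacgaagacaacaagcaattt
Gm15920, site 99: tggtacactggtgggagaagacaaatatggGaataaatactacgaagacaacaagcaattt
Ndufa12, site 378: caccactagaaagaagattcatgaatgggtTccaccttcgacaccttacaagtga
Gm15920, site 378: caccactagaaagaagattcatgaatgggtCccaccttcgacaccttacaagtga
Of the 1061 windows of 50 bases in the longer of the 2 coding transcripts compared, 278 (26.2%) occur unchanged in the copy. In the shorter transcript it was 278 of 517 (53.8%). The sources used here do not say how reads that map to both places were assigned, and its part in the opposite ratios was not tested.

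**Figure D3:**
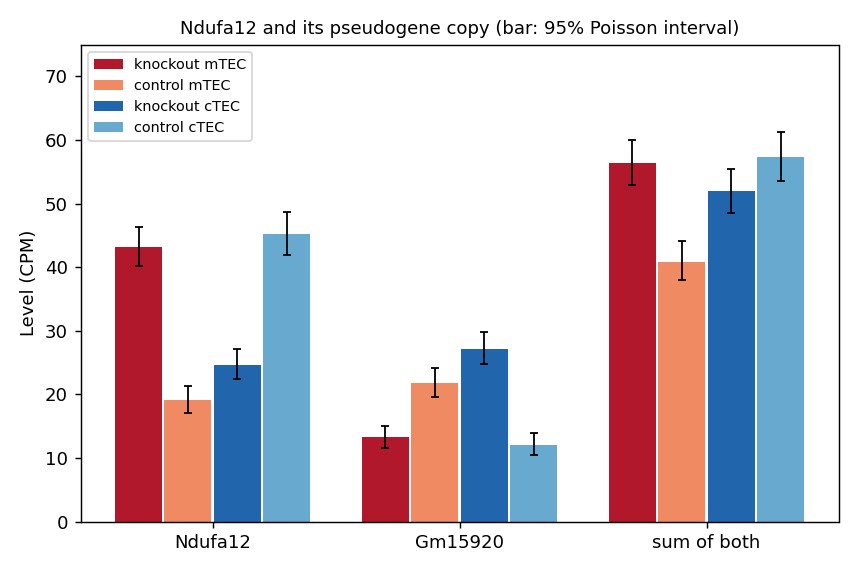
Level in CPM of Ndufa12, of its pseudogene Gm15920 and of their summed reads in the 4 libraries, with 95% Poisson intervals. Ndufa12 is high in knockout mTEC (43.1 CPM) and control cTEC (45.2 CPM), the 2 libraries in which Gm15920 is low.

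Ndufs3, a core subunit of complex I in the arm that carries electrons to ubiquinone, had 45.8 CPM in knockout mTEC and 51.5 CPM in control mTEC, and 76.4 CPM in knockout cTEC and 60.7 CPM in control cTEC. Knockout cTEC was the highest library, and the log2 ratio of knockout over control was 0.33 (interval 0.21 to 0.45) in cTEC and -0.17 (-0.31 to -0.03) in mTEC. Ndufs3 shares 35.8% of its windows with other genes, but its one sizeable copy, Gm12251, had 46 to 64 reads per library and the ratios changed little when those were added (0.33 and -0.15).

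Below 1.2-fold, the members of mTEC whose interval lay farthest above 0 after Ndufa12 were the complex IV subunits Cox6b1 (148 CPM in knockout, 129 CPM in control, log2 ratio 0.19) and Cox4i1 (341 and 306 CPM, 0.16), with Uqcr10 (70.1 and 60.6 CPM, 0.21) and Ndufb10 (85.6 and 74.6 CPM, 0.20). These ratios held no gene past the threshold, and the complex IV pair are both general isoforms. On the other side lay Ndufs3, Ndufb5, Sdhc, Atp5b and Uqcrq, with ratios between -0.17 and 0.01. In cTEC the members after Ndufs3 included Atp5b (1055 CPM in knockout, 939 CPM in control, 0.17), Ndufa13 (70.8 and 60.6 CPM, 0.22) and Uqcrc2, a core protein of complex III (137 and 121 CPM, 0.18). Below 0 and after Ndufa12 lay Atp5d (-0.14), Ndufb7 (-0.20), Ndufb4 (-0.20) and Uqcrc1 (-0.12).

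The knockout ratio in mTEC minus that in cTEC was past 1.2-fold for 3 of 79 members, 3.8%, where 14.9% of 15829 genes were. Ndufa12 differed by 2.04 on the log2 scale (1.17 in mTEC and -0.87 in cTEC), Ndufb4 by 0.28 and Ndufs3 by -0.50. The first 2 were relatively higher in knockout mTEC and Ndufs3 in knockout cTEC.

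Between the populations the members were mostly lower in mTEC. Of 79 members, 29 were past 1.2-fold lower in mTEC than in cTEC in the knockout libraries, and 34 of 79 in the control libraries, while 5 and 2 were higher. With scaling by total counts alone, 19 and 23 were lower and 8 and 5 higher. Over all genes, 35% and 33.9% were past it lower and 31.6% and 31% higher, so the members' share on the lower side was near the background and that on the higher side below it. With at least 1000 reads, 27 and 31 of 74 members were lower, where 43.1% and 40.4% of all genes were, and 4 and 1 higher, where 19.8% and 19.9% were. Past 2-fold were 3 members in the knockout libraries and 4 in the control libraries, where 28.8% and 27.5% of all genes were. In both genotypes 23 members were lower (29% of 15509 genes) and 2 higher, Cox4i2 and Ndufc2 (27.2%).

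The median log2 ratio of mTEC over cTEC was -0.19 in the knockout libraries and -0.20 in the control libraries, beside -0.08 and -0.05 over all genes. Above 0 lay 15 and 16 of 79 members, where 45.3% and 46.5% of all genes did, and 24 and 28 members with scaling by total counts alone. With at least 1000 reads the numbers were 13 and 15 of 74 members, where 33.9% and 36.3% of all genes did. The summed level of the members was 15437 TPM in knockout mTEC and 17578 TPM in knockout cTEC, and 15026 TPM in control mTEC and 17178 TPM in control cTEC. The pairs of libraries behind the 2 genotypes are separate. Across the 79 genes their ratios had a Pearson r of 0.848 and a Spearman rho of 0.809, with 68 of the same sign. Without Ndufa12, r was 0.957 and rho 0.874 over 78 genes. Both r values include Cox4i2, which lay far from the rest at 2.83 and 3.18. The same agreement over all genes was not computed. The members share 4 libraries and are not independent replicates. Markers of other cells also differed between the populations: the 8 myeloid and dendritic genes summed to 352 CPM (knockout) and 315 CPM (control) in mTEC against 94.9 CPM (knockout) and 74.5 CPM (control) in cTEC, and the erythroid genes to 16.6 CPM (knockout) and 16.1 CPM (control) against 1.94 CPM (knockout) and 1.70 CPM (control). Thymocyte markers were lower in mTEC, with medians of -0.58 and -0.50 and 11 and 10 of 12 past 1.2-fold. Fibroblast and pericyte markers went both ways, among them Pdgfrb (3.63 and 3.53) and Dcn (-2.08 and -2.06). The part of these cells in the members' ratios was not tested.

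**Figure D4:**
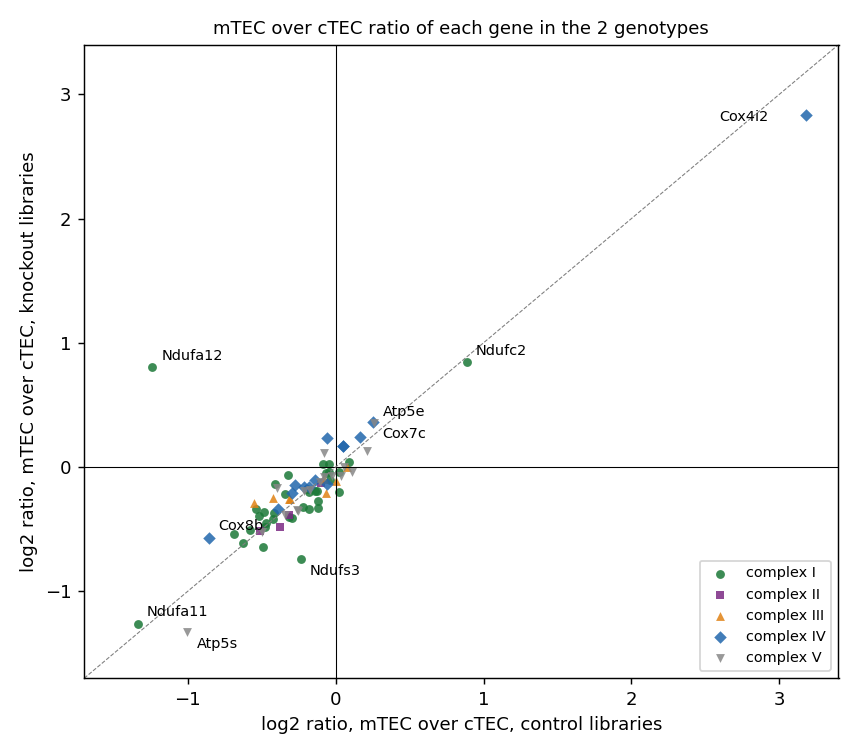
Log2 ratio of mTEC over cTEC of each gene in the knockout libraries (vertical) against the control libraries (horizontal), by complex, with the dashed line at equal ratios. Most points lie below 0 on both axes near the line, Ndufa12 lies far from it at 0.80 and -1.24, and Cox4i2 and Ndufc2 are high on both.

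Complexes I and II held most of the genes lower in mTEC. In complex I, 19 of 36 were past 1.2-fold lower in the knockout libraries and 18 of 36 in the control libraries. Of all genes, 35% and 33.9% were, and of genes with at least 1000 reads, near the depth of most members, 43.1% and 40.4%. The medians of complex I were -0.30 and -0.27. All 7 core subunits, which carry the flavin and the iron-sulfur clusters, lay below 0 in both genotypes, 6 and 3 of them past 1.2-fold. Ndufv1, which binds NADH, had 77.8 CPM (knockout) and 73.5 CPM (control) in mTEC against 110 CPM (knockout) and 110 CPM (control) in cTEC, log2 ratios of -0.51 and -0.58. Ndufs7, which passes electrons to ubiquinone, had 57.1 CPM (knockout) and 55.0 CPM (control) in mTEC against 87.2 CPM (knockout) and 84.9 CPM (control) in cTEC, ratios of -0.61 and -0.62. For both genes the 2 mTEC libraries lay together and below the 2 cTEC libraries.

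Among the accessory subunits of complex I, Ndufa11, in the membrane arm, differed most. It had 84.7 CPM (knockout) and 76.9 CPM (control) in mTEC against 203 CPM (knockout) and 195 CPM (control) in cTEC, and log2 ratios of -1.26 (interval -1.35 to -1.17) and -1.34 (-1.43 to -1.25). Its span overlaps 256 bases of the oppositely transcribed Vmac, which had 580 reads (knockout) and 531 reads (control) in mTEC against 2093 reads (knockout) and 1725 reads (control) in cTEC, and of its 50-base windows 2.6% lie in a transcript of an overlapping gene. The sources used here do not say whether reads were counted by strand, and the part of Vmac was not tested. Ndufa5 had 630 reads (knockout) and 605 reads (control) in mTEC against 983 reads (knockout) and 764 reads (control) in cTEC, and Ndufb10 had 85.6 CPM (knockout) and 74.6 CPM (control) against 124 CPM (knockout) and 120 CPM (control). Their ratios were -0.64 and -0.49 for Ndufa5 and -0.54 and -0.69 for Ndufb10.

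Ndufc2, another membrane-arm subunit, ran the other way. It had 78.4 CPM (knockout) and 72.6 CPM (control) in mTEC against 43.8 CPM (knockout) and 39.3 CPM (control) in cTEC, and log2 ratios of 0.84 (interval 0.71 to 0.97) and 0.885 (0.74 to 1.03). Its namesake Ndufc1 was lower in mTEC, at -0.36 and -0.48. Ndufa12 was higher in mTEC in the knockout libraries (0.80) and lower in the control libraries (-1.24), and on the reads summed with its copy the ratios were 0.12 and -0.49. Ndufs3 had ratios of -0.74 in the knockout and -0.24 in the control libraries.

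All 4 subunits of complex II lay below 0 in both genotypes and 3 were past 1.2-fold lower. Of all genes, 35% (knockout) and 33.9% (control) were, and of genes with at least 1000 reads 43.1% and 40.4%. Sdha, which oxidises succinate, had 154 CPM (knockout) and 151 CPM (control) in mTEC against 220 CPM (knockout) and 215 CPM (control) in cTEC, ratios of -0.52 and -0.51. The iron-sulfur subunit Sdhb had ratios of -0.48 and -0.38 and the anchor Sdhc -0.38 and -0.31, while the second anchor, Sdhd, at -0.13 and -0.10, did not pass. In complex III, 1 of 8 in the knockout and 4 of 8 in the control libraries were lower, beside the same shares of all genes. The medians of complex III were -0.23 and -0.19. Uqcr10, a small accessory subunit, had 70.1 CPM (knockout) and 60.6 CPM (control) in mTEC against 85.9 CPM (knockout) and 88.7 CPM (control) in cTEC and was the one lower in both (-0.29 and -0.55).

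Complexes IV and V stayed closer to equal levels, with medians of -0.12 in both for the knockout libraries and of -0.10 and -0.11 for the control libraries. In complex IV the leading gene Cox8a was lower in mTEC, with 256 CPM (knockout) and 250 CPM (control) in mTEC against 323 CPM (knockout) and 327 CPM (control) in cTEC, ratios of -0.34 and -0.39. Cox7c, a single-isoform subunit, lay above 0, with 144 CPM (knockout) and 130 CPM (control) in mTEC against 112 CPM (knockout) and 109 CPM (control) in cTEC. It was past 1.2-fold in the knockout libraries (0.36) and not in the control libraries (0.25), and the difference between the 2 was not tested. Cox7c has copies over 27.9% of its windows, and with their reads added the knockout ratio was again 0.36. Cox5b, with a copy over 25.9% of its windows, had ratios of -0.10 and -0.14, and Ndufs5 of complex I, with 31.1%, had -0.34 and -0.18.

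In complex V, 5 of 17 genes were lower in each genotype, a share below the 35% and 33.9% of all genes. The peripheral stalk gene Atp5h (-0.34 and -0.26), the stalk gene Atp5j (-0.38 and -0.34) and the small membrane protein Atp5mpl (-0.52 and -0.50) were lower in both. Atp5j shares 20.2% of its windows with transcripts of the oppositely transcribed Gabpa, whose ratios were -0.75 and -0.61, and the part of Gabpa was not tested. Atp5s, coupling factor B, was past 2-fold, barely so in the control libraries: it had 6.49 CPM (knockout) and 7.04 CPM (control) in mTEC against 16.3 CPM (knockout) and 14.1 CPM (control) in cTEC, with ratios of -1.33 (interval -1.66 to -1.01) and -1.002 (-1.34 to -0.68). The control ratio was -0.91 with scaling by total counts. The epsilon subunit of F1, Atp5e, was on the higher side, with 170 CPM (knockout) and 153 CPM (control) in mTEC against 133 CPM (knockout) and 128 CPM (control) in cTEC, ratios of 0.35 and 0.26, past 1.2-fold in the knockout libraries. The stalk gene Atp5f1 had 197 CPM (knockout) and 196 CPM (control) in mTEC against 181 CPM (knockout) and 169 CPM (control) in cTEC, 0.13 and 0.21. The catalytic subunits differed from each other: Atp5a1 had ratios of -0.35 and -0.26, and Atp5b of -0.04 and 0.11.

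The isoforms restricted to other tissues were few in reads. Cox4i2, the subunit 4 isoform known from lung and smooth muscle, had 53 reads (knockout) and 65 reads (control) in mTEC against 7 reads (knockout) and 6 reads (control) in cTEC, log2 ratios of 2.83 (interval 1.78 to 4.30) and 3.18 (2.08 to 4.78). The level stayed far below that of its general partner: Cox4i2 averaged 6.83 TPM and Cox4i1 551 TPM. Cox4i1 had ratios of 0.24 and 0.16. Markers of pericytes were higher in mTEC beside Cox4i2: Rgs5 had 5950 reads (knockout) and 5706 reads (control) in mTEC against 645 reads (knockout) and 643 reads (control) in cTEC, ratios of 3.20 and 2.99, and Pdgfrb had ratios of 3.63 and 3.53. The fibroblast and pericyte list as a whole had medians of 1.26 and 0.80, with 5 of 8 above 0 in each genotype, and summed to 524 CPM (knockout) and 515 CPM (control) in mTEC against 422 CPM (knockout) and 435 CPM (control) in cTEC. The part of these cells in the Cox4i2 ratio was not tested. Cox6a2, the heart and skeletal muscle isoform, had 25 reads (knockout) and 33 reads (control) in mTEC against 2 reads (knockout) and 3 reads (control) in cTEC, ratios of 3.35 (1.64 to 6.76) and 3.11 (1.63 to 5.65), and was under the 50 reads needed for a call. It lies within the span of the oppositely transcribed Itgad, which had 95 reads (knockout) and 60 reads (control) in mTEC against 6 reads (knockout) and 1 read (control) in cTEC, and 3.3% of its windows lie in a transcript of that gene.

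Skeletal and cardiac muscle genes were mostly higher in mTEC, 9 of the 10 tested in each genotype, with 1 lower. The 12 listed summed to 157 CPM (knockout) and 159 CPM (control) in mTEC against 31.5 CPM (knockout) and 33.7 CPM (control) in cTEC, and Ckm, muscle creatine kinase, had 77 reads (knockout) and 55 reads (control) against 5 reads (knockout) and 6 reads (control). Their part in Cox6a2 was not tested. The other muscle isoforms did not share its pattern. Cox7a1 had 19 reads (knockout) and 26 reads (control) in mTEC against 20 reads (knockout) and 19 reads (control) in cTEC, and Cox8b had 35 reads (knockout) and 25 reads (control) against 52 reads (knockout) and 41 reads (control). The testis isoform Cox6b2 had 56 to 66 reads in every library, the testis isoforms Cox7b2 and Cox8c had 0, and Ndufa4l2, induced by low oxygen, had 3 to 11.

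Where isoform pairs were both read, the general form took nearly all of the level. Cox6a1 averaged 799 TPM against 3.81 TPM for Cox6a2, Cox6b1 532 TPM against 9.11 TPM for Cox6b2, Cox7a2 231 TPM against 6.61 TPM for Cox7a1, and Cox8a 1501 TPM against 17.9 TPM for Cox8b. Cox7b averaged 222 TPM, and Ndufa4, named with complex I but known as a partner of complex IV, 220 TPM against 1.16 TPM for Ndufa4l2. The 3 genes for the c subunit of ATP synthase encode the same mature protein. Atp5g3 averaged 285 TPM, Atp5g2 243 TPM and Atp5g1 40.0 TPM, and all 3 had mTEC over cTEC ratios between -0.18 and 0.06.

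The mitochondrially encoded subunits were higher in mTEC, where most of their nuclear partners lay below 0. The 13 genes summed to 30757 CPM in knockout mTEC and 21967 CPM in knockout cTEC, and to 30264 CPM in control mTEC and 18206 CPM in control cTEC. All 12 tested lay above 0 in both genotypes, where 45.3% (knockout) and 46.5% (control) of all genes did. Of the 12 tested, 11 were past 1.2-fold higher in mTEC in each genotype, where 31.6% and 31% of all genes were. The medians of the 12 were 0.57 (knockout) and 0.79 (control), beside -0.08 and -0.05 over all genes. The most read of them, mt-Co1, encodes the catalytic subunit of complex IV and had 236980 reads (knockout) and 225608 reads (control) in mTEC against 164730 reads (knockout) and 121154 reads (control) in cTEC. Between knockout and control the median over these genes was 0.04 in mTEC and 0.22 in cTEC, beside 0.01 over all genes in each population. Past 1.2-fold higher were 0 of 12 in mTEC and 2 of 12 in cTEC, where 5.9% and 7.12% of all genes were. With 1 library per group this difference was not tested.

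Other nuclear genes of mitochondria shared the lower median in mTEC. Mitochondrial ribosomal proteins had medians of -0.28 (knockout) and -0.26 (control), with 40 and 38 of 77 past 1.2-fold lower, and tricarboxylic acid cycle enzymes -0.24 and -0.27, with 8 and 10 of 18. These counts and those of the assembly factors stand beside 35% and 33.9% of all genes, and beside 43.1% and 40.4% of genes with at least 1000 reads, near which the cycle enzymes lie in the knockout libraries. Assembly factors of complex I had -0.34 and -0.39, with 11 and 10 of 17 lower, and those of complex IV -0.36 and -0.40, with 15 and 13 of 23. Foxred1, a complex I assembly factor, had 624 reads (knockout) and 587 reads (control) in mTEC against 1465 reads (knockout) and 1420 reads (control) in cTEC, ratios of -1.23 and -1.43. The complex V assembly factor Atpaf1 had 132 reads (knockout) and 115 reads (control) against 347 reads (knockout) and 254 reads (control), ratios of -1.39 and -1.30. Cytosolic ribosomal proteins were on the other side, at 0.16 and 0.12.

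**Figure D5:**
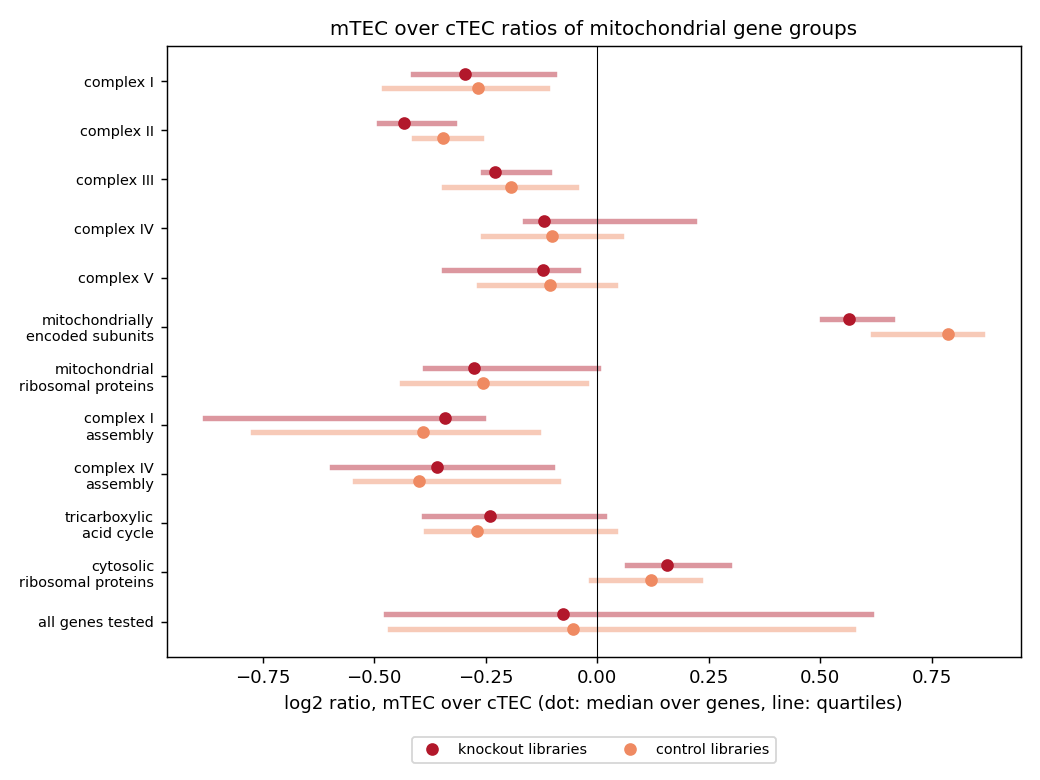
Median log2 ratio of mTEC over cTEC (dots) and quartiles over genes (lines) for the 5 complexes and other gene groups, in the knockout libraries (upper) and the control libraries (lower). The nuclear groups of mitochondria lie below 0, and the mitochondrially encoded subunits lie at 0.57 and 0.79.

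The regulators of mitochondrial biogenesis did not move as a block, with medians of -0.09 (knockout) and -0.13 (control) over 16 genes. Esrrg, a nuclear receptor of oxidative tissues, was higher in mTEC, with 223 reads (knockout) and 219 reads (control) against 69 reads (knockout) and 53 reads (control) in cTEC, ratios of 1.68 and 1.88. Perm1, a regulator known from muscle, was lower (-1.09 and -0.77), and Gabpb1, a subunit of NRF-2, had ratios of 0.76 and 0.59. Of the subunits that the naming rule misses and cytochrome c, Cycs was higher in mTEC (0.46 and 0.58) and the ATPase inhibitor Atpif1 lower (-0.45 and -0.64). Cycs shares 28.5% of its windows with other genes, so its reads are uncertain. Between knockout and control, no regulator was past 1.2-fold in either population, and 2-fold was passed on few reads by 1 of 23 complex IV assembly factors in mTEC (0.935% of all genes) and 1 of 4 complex II assembly factors in cTEC (1.18%). Cox20 had 68 reads in knockout mTEC and 28 in control mTEC (1.22), and was lower in knockout cTEC (-0.56). Sdhaf1 had 96 reads in knockout cTEC and 33 in control cTEC (1.33), and a ratio of -0.10 in mTEC.

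Promoters were searched for 4 motifs of 3 factors or families known to act on these genes, on both strands: NRF1 (GCGC, AT and GCGC in a row, and the looser GCGC, any 2 bases and GCGC, which contains it), ETS factors such as NRF-2 (CCGGAAG) and YY1 (AAGATGGC). RefSeq windows from 250 bases before to 50 after the start were matched to 68 of the 85 entries, each window counted once. The loose NRF1 motif was in 17 of them, 25%, the strict form in 7.35%, the ETS motif in 22.1% and the YY1 motif in 13.2%. In promoters of protein-coding genes with at least 1000 reads over the 4 libraries, near the depth of most members, the shares were 14.8%, 2.14%, 19.5% and 5.15% in the same order, and with at least 50 reads 11.8%, 1.76%, 15.6% and 4.01%. The ETS share was thus close to that of well-read genes. Of the 9 windows with the YY1 motif, 7 belong to complex I and 2 to complex V. A match is a description of letters and not of binding.

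The promoters of Ndufa11, Atp5s and Ndufc2 are shown because these had the widest ratios of mTEC over cTEC among the members past 1.2-fold in both genotypes that have a window; Cox4i2 has none here. Those of Atp5e and Cox6a1 are shown as examples that hold an ETS match. Each runs 5′ to 3′ on the gene's strand from RefSeq GRCm38.p6, over up to 250 bases before the start and cut where it enters another gene's exon or over 30 bases of the gene's own, with motif matches in capitals. Ndufa11 (chr17:56717686-56717761, plus strand), lower in mTEC, holds an NRF1 match, and Atp5s (chr12:69724874-69724944, plus strand), also lower, holds none of the motifs in the stretch shown. Ndufc2 (chr7:97399753-97400002, plus strand), higher in mTEC, holds none, Atp5e (chr2:174464102-174464351, minus strand) an ETS match, and Cox6a1 (chr5:115348959-115349129, minus strand) 2 NRF1 matches and an ETS match.
Ndufa11: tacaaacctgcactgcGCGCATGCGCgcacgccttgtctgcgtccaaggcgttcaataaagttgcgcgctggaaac
Atp5s: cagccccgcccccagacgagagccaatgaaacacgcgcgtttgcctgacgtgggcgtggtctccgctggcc
Ndufc2: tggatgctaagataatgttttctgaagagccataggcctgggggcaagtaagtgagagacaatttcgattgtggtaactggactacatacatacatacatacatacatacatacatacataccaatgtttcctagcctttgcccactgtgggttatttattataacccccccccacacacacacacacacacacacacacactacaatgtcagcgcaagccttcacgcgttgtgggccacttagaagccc
Atp5e: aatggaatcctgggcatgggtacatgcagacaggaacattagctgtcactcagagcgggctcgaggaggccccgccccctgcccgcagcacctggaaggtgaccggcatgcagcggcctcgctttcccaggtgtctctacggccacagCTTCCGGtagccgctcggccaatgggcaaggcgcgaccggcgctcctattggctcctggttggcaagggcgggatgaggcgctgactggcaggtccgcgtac
Cox6a1: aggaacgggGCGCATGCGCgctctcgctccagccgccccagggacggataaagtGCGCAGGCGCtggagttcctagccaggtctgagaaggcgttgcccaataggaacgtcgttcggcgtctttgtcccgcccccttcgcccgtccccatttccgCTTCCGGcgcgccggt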

How the data were processed

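Bulk RNA of 4 thymic epithelial libraries, 1 per group, was analysed from the deposited gene table, which per the file headers holds raw counts of reads per gene with symbol, position, biotype and another (other) value, the gene length in bases. Per the submitters' processing notes the authors used HISAT2 2.0.5, featureCounts 1.5.0-p3 and CASAVA, with build mm10. Strand setting, annotation release and the handling of multiply mapped reads were not given in the sources used here.

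Counts were scaled with TMM in edgeR 4.0.16 (R 4.3.3), which gave 1.03 for either mTEC library, 0.966 for knockout cTEC and 0.971 for control cTEC. Ratios and intervals were computed in Python 3.11.15 with numpy 2.4.6, pandas 2.3.3 and scipy 1.17.1, and figures drawn in matplotlib 3.10.9. Log2 ratios used a prior count of 0.5, with exact conditional (Clopper-Pearson) 95% intervals, and CPM had exact Poisson intervals. Intervals and floors (3 counts) cover counting error only, because each group is 1 library. PCR reads are no independent molecules, so the intervals may be too narrow even for counting error. A gene was called at 50 or more reads over the pair, a ratio past 1.2-fold or 2-fold and an interval excluding 0; the procedure was tested on simulated data. TPM used the deposited gene lengths. No p-value was computed, since each group has 1 library.

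Values are given for the 2 genes of highest TPM per complex, all past 2-fold, the 5 per side with the interval bound farthest from 0 in each comparison, isoform pairs, and genes with 25% or more of 50-base windows in another gene (GENCODE M21 transcripts; all 85 entries were in it, 79 with the same coordinates). One gene that this rule names is not reported here. The exact sites of Ndufa12 and Gm15920 were looked up after their values were seen. The members and lists were chosen with earlier results of these data known. Alternatives were size factors from DESeq2 1.42.0, total counts, read minimums of 200, 1000 or none, a prior count of 2, members without shared sequence, reads of copies added, subunits outside the naming rule added, transcript lengths and a shorter promoter window.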

Additional observations from a re-analysis of the deposited data

Results flagged for a closer look

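The knockout ratio of Ndufa12 had opposite signs in the populations: the log2 ratio of knockout over control was 1.17 in mTEC and -0.87 in cTEC, a difference of 2.04, and neither interval reached 0. With 1 library per group the difference was not tested. On the reads summed with the pseudogene Gm15920 the ratios were 0.46 and -0.14.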

How the results depend on the processing

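No paired analysis was possible because each group is 1 library and the labels carry no replicate numbers; for the same reason no library could be left out. Of 191 summary values recomputed under an alternative, 175 did not move. For counts this meant within 1.5 times, for median TPM within 1 SD of the 4 libraries, and for motif shares within their 95% binomial interval. For median ratios it meant within the median half-width of the single members' intervals. That width exceeded the knockout medians of 0.06, so this rule could not show whether those medians held. Of 569 values of single called genes, 543 stayed past 1.2-fold, 26 fell under it and 0 changed direction. With the copies' reads added, the members past 2-fold between knockout and control mTEC numbered 0, and those lower in knockout cTEC 0; without the genes sharing sequence, those higher in knockout cTEC numbered 0 (Ndufs3 is one of the genes removed). The knockout difference between populations counted 5 members with median-of-ratios factors, and 3 with the copies' reads added, an alternative chosen after seeing the data. For mTEC over cTEC, scaling by total counts gave 8 higher, 19 lower and 24 above 0 in the knockout libraries, and 5 higher and 28 above 0 in the control libraries, where median-of-ratios factors gave 4 higher. With read minimums of 200 and of 1000 the control libraries had 1 higher, and at 1000 reads 2 members were past 2-fold there and 1 in the knockout libraries, since Cox4i2 and Atp5s have fewer reads. With transcript lengths the median TPM was 145.6 in complex II (112.3 with deposited lengths) and 222.1 in complex III (212.5). Depth limits Cox4i2, Cox6a2, Cox7a1, Cox8b and Ndufa4l2, for which smaller differences were not detectable.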
